A study of Mus musculus with 12 samples.

Results

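The genes of pulmonary surfactant and of its storage organelle, the lamellar body, were measured in cultured mouse type II alveolar epithelial (AT2) cells. The set held 9 genes that were found by symbol among the 55450 genes of the count table: the surfactant proteins Sftpa1, Sftpb, Sftpc and Sftpd, the lamellar body lipid transporter Abca3, the lysosomal membrane protein Lamp3, the proteases Napsa and Ctsh, and the phosphate transporter Slc34a2. All 9 were measured and all 9 passed the filter on low counts, which kept 20612 genes. RNA was sequenced from 12 libraries, 3 in each of 4 groups. AT2 cells came from AhRfl/fl mice, whose aryl hydrocarbon receptor gene (Ahr) carries loxP sites but which have no Cre (labelled WT), or from Sftpc-Cre;AhRfl/fl mice (labelled KO). Lungs were digested with dispase, and blood and immune cells were depleted with antibodies that included anti-CD45 and anti-Ter119 and by panning on IgG. The cells were then cultured on collagen I and received PBS or cockroach extract (CRE) at 50 µg/ml for 24 h. The mice were on a C57BL/6 background and were 6 to 8 weeks old. Cre was driven by elements of the Sftpc locus and was absent from the control line, so a difference between the genotypes could come from the Cre transgene as well as from the loss of Ahr, and these cannot be told apart. One of the 9 genes, Sftpc, is thus also the gene whose elements drive the deletion.

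Surfactant is a film of phospholipid and protein that AT2 cells make, store in lamellar bodies and secrete to lower the surface tension of the alveoli. SP-B and SP-C, the products of Sftpb and Sftpc, are small hydrophobic proteins that organise the lipid film, and both are cut from longer precursors by proteases that include napsin A (Napsa) and cathepsin H (Ctsh). SP-A and SP-D, from Sftpa1 and Sftpd, are collectins that bind microbes and other particles. ABCA3 pumps phospholipid into the lamellar body, LAMP3 lies in its membrane, and SLC34A2 takes phosphate back up from the alveolar fluid.

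In build GRCm38, Sftpa1 (ENSMUSG00000021789, chromosome 14, 41131782 to 41136452, plus strand) and Sftpd (ENSMUSG00000021795, chromosome 14, 41172214 to 41185149, minus strand) are neighbours in the collectin cluster. Sftpc (ENSMUSG00000022097) lies farther along chromosome 14, at 70520949 to 70524081 on the minus strand. Sftpb (ENSMUSG00000056370) is at 72304610 to 72314371 of chromosome 6, and Abca3 (ENSMUSG00000024130) at 24351950 to 24410201 of chromosome 17, both on the plus strand. Lamp3 (ENSMUSG00000041247) is at 19653378 to 19706375 of chromosome 16 on the minus strand. Napsa (ENSMUSG00000002204, chromosome 7, 44572380 to 44586862), Ctsh (ENSMUSG00000032359, chromosome 9, 90054152 to 90076089) and Slc34a2 (ENSMUSG00000029188, chromosome 5, 53038081 to 53071664) are all on the plus strand. The antisense genes that overlap Abca3, Napsa and Slc34a2 reached at most 1.88, 0.164 and 0.185 counts per 1000000 reads.

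The total count per library lay between 68878065 and 80935797. The 9 genes together held between 0.531% and 0.931% of it. Cyp1b1, a target gene of the receptor, checked the labels: it averaged 384 ± 34.6 counts per 1000000 (CPM, SD, n = 3) with PBS in AhRfl/fl cells and 44.7 ± 13.7 in Sftpc-Cre;AhRfl/fl cells, a log2 difference of -3.10 (edgeR adjusted p = 0.000879). Ahr itself was at 44 ± 1.1 and 45.2 ± 4.73 CPM in the same groups (log2 difference 0.039, edgeR adjusted p = 0.99), and a count over the whole gene does not show whether an exon was removed. The surfactant genes that define AT2 cells were abundant in every library, and so was Scgb1a1, the defining gene of club cells, which reached 7342 to 15747 FPKM (fragments per kilobase and per 1000000 fragments), more than Sftpc in every library.

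The sequence before the transcription start was available for 5 of the 9 genes, from the RefSeq promoter table of build GRCm38.p6. It was searched, from 250 bases before to 50 bases after the start and on both strands, for the core letters bound by the AhR complex (GCGTG), for letters of NKX2-1 sites (CTCAAG or CACTTG), the homeodomain factor of lung epithelium, and for forkhead letters (TGTTTAC or TGTTTGC). The 250 bases before the start are shown for Sftpa1 and Sftpb, whose levels moved together across the libraries, for Abca3, whose level went less closely with theirs, and for Lamp3, which was higher with CRE. Capitals mark the matches, on either strand, and positions count back from the base before the start, which is -1.
Sftpa1 (chr14:41131538-41131787, plus strand): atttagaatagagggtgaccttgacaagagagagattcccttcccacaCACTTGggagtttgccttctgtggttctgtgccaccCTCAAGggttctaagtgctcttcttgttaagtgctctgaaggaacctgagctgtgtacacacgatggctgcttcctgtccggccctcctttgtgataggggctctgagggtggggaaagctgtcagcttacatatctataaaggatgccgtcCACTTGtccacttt
Sftpb (chr6:72304360-72304609, plus strand): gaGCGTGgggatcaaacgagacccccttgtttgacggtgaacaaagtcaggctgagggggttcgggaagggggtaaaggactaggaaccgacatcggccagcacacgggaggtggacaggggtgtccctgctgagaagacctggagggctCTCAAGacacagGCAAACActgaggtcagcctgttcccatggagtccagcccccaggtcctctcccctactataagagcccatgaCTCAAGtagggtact
Abca3 (chr17:24351773-24352022, plus strand): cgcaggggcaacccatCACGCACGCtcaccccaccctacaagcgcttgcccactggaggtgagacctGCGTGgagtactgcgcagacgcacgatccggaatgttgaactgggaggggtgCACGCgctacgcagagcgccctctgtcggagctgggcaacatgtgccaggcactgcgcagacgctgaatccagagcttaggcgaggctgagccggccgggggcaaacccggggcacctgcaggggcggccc
Lamp3 (chr16:19706366-19706615, minus strand): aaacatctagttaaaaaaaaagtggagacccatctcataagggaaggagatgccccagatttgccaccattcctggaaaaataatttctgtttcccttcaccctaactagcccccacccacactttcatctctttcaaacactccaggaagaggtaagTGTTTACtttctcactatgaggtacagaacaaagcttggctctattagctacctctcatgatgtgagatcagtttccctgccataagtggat
The Sftpa1 window held letters of NKX2-1 sites at -202, -166 and -14 and no AhR core. The Sftpb window held CTCAAG at -100 and -15, forkhead letters on the opposite strand from -88, and 1 AhR core at its far end, at -248. The Abca3 window held 5 AhR cores, of which 4 lie before the start (from -234, -230, -183 and -131), and neither of the other kinds of letters. The Lamp3 window held forkhead letters from -92 only. The fifth gene, Slc34a2, held 1 AhR core at -78. Its window (chr5:53049103-53049402) belongs to a start inside the gene bounds given above, and the sequence before the outer start was not searched. Of all 32851 promoters in the table, 32.4% held the AhR core, 26.4% an NKX2-1 form and 8.48% a forkhead form, against 3, 2 and 2 of these 5 genes. A match of letters is a description and does not show binding.

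The 9 genes covered a wide range of levels, which were compared per transcript length as FPKM. Sftpc was by far the most abundant, with a median of 4505 FPKM (range 2772 to 5465 over the 12 libraries), and it ranked between place 3 and place 7 of all genes in each library. Sftpb followed at a median of 284 FPKM, 13.6 to 17.3 times below Sftpc within a library. Sftpa1 stood at 232, Ctsh at 119, Sftpd at 83.7 and Napsa at 65.9 FPKM. Abca3 (14 FPKM) and Lamp3 (14.7 FPKM) were level with each other, and Slc34a2 was lowest at 2.31 FPKM (range 1.67 to 3.89). The order of Sftpc, Sftpb and Sftpa1 was the same in 12 of 12 libraries, and so was that of Sftpd over Napsa, of Napsa over Abca3 and of Lamp3 over Slc34a2. Sftpd and Napsa were nearly level in AhRfl/fl cells with PBS, at 77.1 and 76.9 FPKM in number 1 and 81.8 and 81.7 FPKM in number 2. Sftpa1 exceeded Ctsh in 11 and Ctsh exceeded Sftpd in 10 of the 12 libraries, and Abca3 exceeded Lamp3 in 6, so the last pair has no order beyond its spread. The length that the deposited FPKM implies, with the summed counts as library total, was 1.11 to 1.12 times the summed length of all annotated exons. A larger library total in the FPKM would give such a factor too, so it shows only lengths in proportion to that sum. The sum is long for Abca3 (9374 bases), Slc34a2 (5013 bases) and Ctsh (4499 bases). A gene whose main transcript is shorter than that sum is placed too low.

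**Figure D1:**
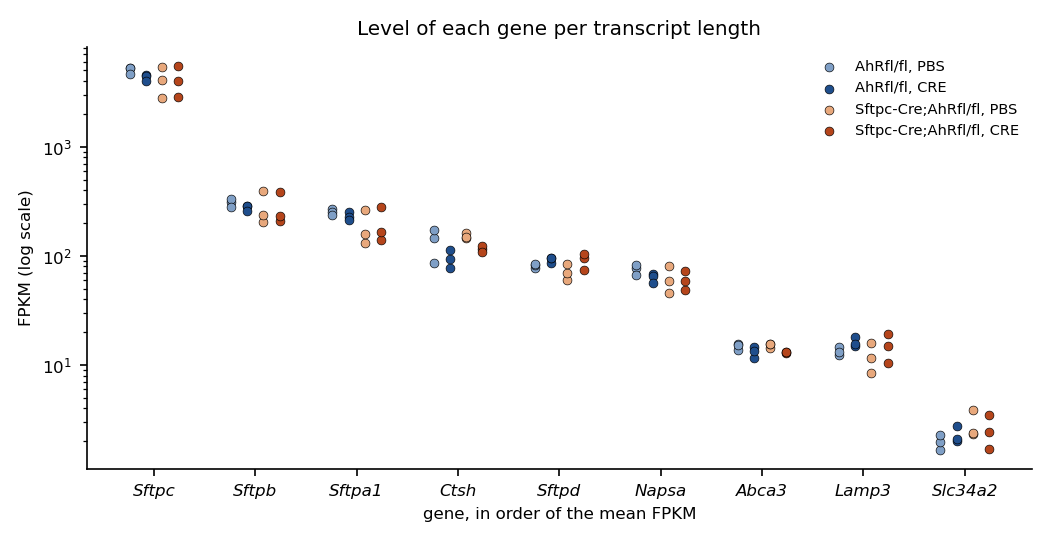
FPKM of each gene on a log axis, with 1 point per library and the 4 groups in separate colours (3 libraries each). Sftpc lies between 2772 and 5465 FPKM and Slc34a2 between 1.67 and 3.89, while Abca3 and Lamp3 overlap.

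Whether the deletion changed these genes was asked first, with PBS and with CRE. No member differed between Sftpc-Cre;AhRfl/fl and AhRfl/fl cells by edgeR's quasi-likelihood test at an adjusted p of 0.05, with PBS or with CRE, and none had an unadjusted p below 0.05 in either. With PBS 0.150% of all tested genes passed, and with CRE 0.170%. DESeq2 and the limma rule of the study also called 0 of 9 members with either treatment. The labels do not say whether the 3 libraries of a group came from separate mice or cultures, so the p-values measure the spread between these libraries, which may be technical. In AhRfl/fl cells the 3 libraries of a group were close together for most of the genes, and in Sftpc-Cre;AhRfl/fl cells 7 of the genes spread more widely, all but Abca3 and Ctsh. With the library number as a block shared by both genotypes, 71 rather than 31 genes were called with PBS, and again 0 of 9 members.

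Sftpc stood at 6016, 6217 and 5476 CPM in AhRfl/fl cells with PBS and at 3086, 4591 and 6183 CPM in Sftpc-Cre;AhRfl/fl cells (libraries of number 1, 2 and 3). With CRE it stood at 5155, 5207 and 4699 CPM in AhRfl/fl cells and at 3216, 4631 and 6492 CPM in Sftpc-Cre;AhRfl/fl cells. Number 1 of the Sftpc-Cre;AhRfl/fl cells was thus low with both treatments and number 3 was at or above the floxed controls, so that the genotypes overlapped with PBS and with CRE. The log2 difference was -0.35 with PBS (95% interval -0.93 to 0.22, adjusted p = 0.795, edgeR) and -0.071 with CRE (-0.65 to 0.50).

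The collectin gene Sftpa1 had 845, 824 and 767 CPM in AhRfl/fl cells with PBS against 401, 492 and 846 CPM in Sftpc-Cre;AhRfl/fl cells. In the CRE libraries it reached 792, 736 and 690 CPM against 434, 530 and 924 CPM. Number 1 was at 0.494 and number 3 at 1.04 times the mean of the floxed controls with PBS, and the log2 difference of -0.49 had an interval from -1.14 to 0.16. Its coefficient of variation was 4.98% and 6.94% in the AhRfl/fl groups and 40.5% and 41.3% in the Sftpc-Cre;AhRfl/fl groups.

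Sftpb, Napsa, Lamp3 and Sftpd also spread more in Sftpc-Cre;AhRfl/fl cells, in the same order of the libraries. Sftpb, Napsa and Lamp3 varied by 5.6% to 11.6% in the AhRfl/fl groups and by 23.8% to 38.4% in the Sftpc-Cre;AhRfl/fl groups, and Sftpd by 5.92% and 8.08% against 19.2% and 19.6%. With PBS, Sftpb in Sftpc-Cre;AhRfl/fl cells was at 0.636, 0.756 and 1.28 times the mean of the floxed controls for number 1, 2 and 3, and Napsa at 0.584, 0.768 and 1.08 times. These 6 genes were lowest in number 1 and highest in number 3 of this genotype, with PBS and with CRE alike. The interval of the difference with PBS ran from -0.77 to 0.44 for Sftpb, from -0.78 to 0.18 for Napsa, from -0.77 to 0.37 for Lamp3 and from -0.56 to 0.13 for Sftpd, on the log2 scale.

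The lipid transporter Abca3 had the same order in Sftpc-Cre;AhRfl/fl cells (145, 159 and 165 CPM with PBS and 132, 137 and 143 CPM with CRE) but a smaller spread, of 6.45% and 3.88%. It was at 157 ± 15.1 CPM in AhRfl/fl and 156 ± 10.1 CPM in Sftpc-Cre;AhRfl/fl cells with PBS (SD, n = 3), and the interval of the log2 difference was the narrowest of the 9 genes, from -0.23 to 0.22. Cathepsin H spread in the other genotype: it was at 423, 749 and 871 CPM in AhRfl/fl cells with PBS and at 785, 725 and 757 CPM in Sftpc-Cre;AhRfl/fl cells, so that its coefficient of variation was 34% and 3.97%. Slc34a2 ranged from 9.16 to 13 CPM in AhRfl/fl cells with PBS and from 12.7 to 21.4 CPM in Sftpc-Cre;AhRfl/fl cells (log2 difference 0.50, interval -0.13 to 1.14). Its coefficient of variation was 17.2% and 18.5% in the AhRfl/fl groups and 30.8% and 35.3% in the Sftpc-Cre;AhRfl/fl groups, where number 2 was highest. Averaged over the treatments, again 0 of 9 members and 0.631% of all tested genes passed, and the median log2 difference of the 9 genes was -0.13 against -0.0059 over all tested genes. The PBS and CRE libraries of one number are counted as separate there although they varied together, which makes that p too small.

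**Figure D2:**
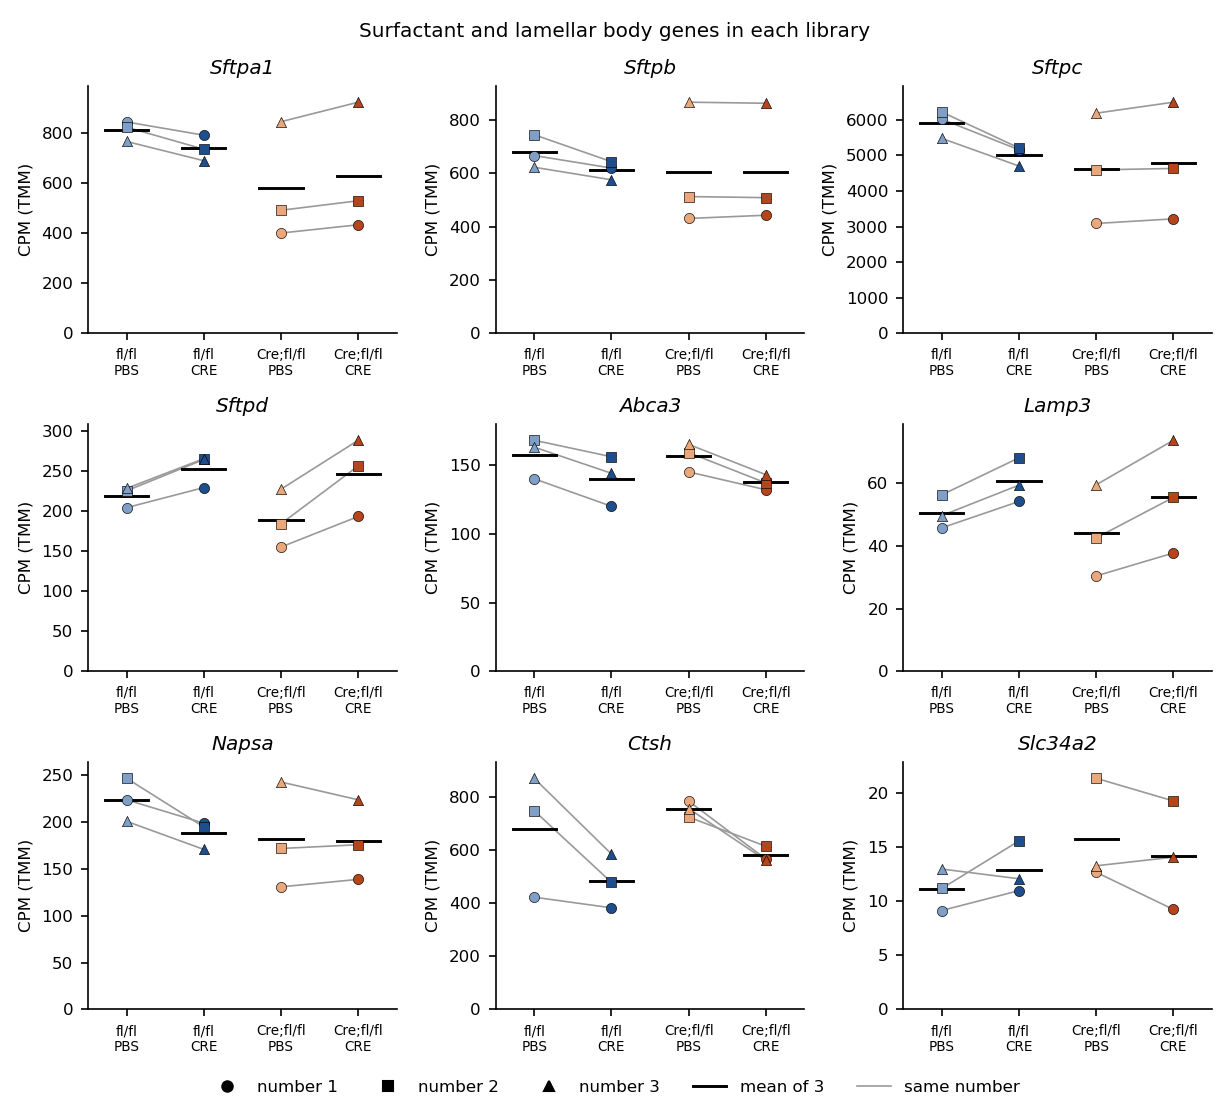
Counts per 1000000 (CPM) after TMM scaling (linear axes from 0) for the 9 genes in the 12 libraries. Black bars are means of 3, the marker shape gives the library number, and grey lines join the PBS and CRE libraries of one number. In Sftpc-Cre;AhRfl/fl cells (right side of each panel) Sftpa1, Sftpb, Sftpc, Sftpd, Lamp3 and Napsa are lowest in number 1 and highest in number 3. Sftpd and Lamp3 are higher and Abca3 and Ctsh lower with CRE along all 6 lines.

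The response to the allergen extract was asked next. Treating all libraries of a group as independent, edgeR called 0 of 9 members in AhRfl/fl cells, where 0.233% of all tested genes passed, and 0 of 9 in Sftpc-Cre;AhRfl/fl cells, where 0.262% passed. At an unadjusted p below 0.05 there was 1 member in each, Ctsh and Sftpd. Averaged over the genotypes it called 0 of 9, against 1.10% of all tested genes, with 3 members (Ctsh, Sftpd and Abca3) at an unadjusted p below 0.05. Without pairs, DESeq2 and the limma rule called 0 members in these comparisons too. The PBS and CRE libraries of one number, however, deviated from their group means together. Over 11476 genes the correlation of these deviations was 0.395 to 0.727 in AhRfl/fl and 0.337 to 0.592 in Sftpc-Cre;AhRfl/fl cells, whereas libraries of unlike numbers reached at most 0.122. Deviations within a group sum to 0, which pushes unlike numbers down wherever like numbers are high, so the low unlike values are not separate evidence for the pairs. The comparison was therefore also made within pairs, and this changed the calls. With the pairs, 3.63% of all tested genes passed in AhRfl/fl cells, 2.13% in Sftpc-Cre;AhRfl/fl cells and 6.59% averaged over the genotypes (3.47% higher and 3.11% lower). Of the 9 members 2, 2 and 5 were called. At an unadjusted p below 0.05, the paired average held 20.3% of all tested genes and 7 of the 9 members (edgeR). The paired values are given below. How many of all tested genes moved in the same direction in every pair, or had treatments that did not overlap, was not counted. Such patterns are therefore given as descriptions of single genes.

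Sftpd, the collectin SP-D, was higher with CRE in 6 of 6 pairs. It stood at 204, 225 and 228 CPM with PBS and at 229, 264 and 265 CPM with CRE in AhRfl/fl cells, and at 155, 184 and 227 CPM with PBS and 193, 256 and 288 CPM with CRE in Sftpc-Cre;AhRfl/fl cells. The treatments were just apart in AhRfl/fl cells, and they overlapped in Sftpc-Cre;AhRfl/fl cells, where the libraries of one number each rose. Averaged over the genotypes Sftpd rose by 0.29 ± 0.03 (log2, SE), or 1.22-fold (adjusted p = 0.00293, paired edgeR). It was called in Sftpc-Cre;AhRfl/fl cells (0.38 ± 0.043, adjusted p = 0.00936), where leaving out the pair of number 2 or 3 of that genotype took adjusted p to 0.0555 and 0.0637. In AhRfl/fl cells the difference was 0.20 ± 0.043 (adjusted p = 0.0567).

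Lamp3, the lamellar body membrane protein, also rose in 6 of 6 pairs. In AhRfl/fl cells it was at 45.7, 56.2 and 49.6 CPM with PBS and at 54.1, 68 and 59.3 CPM with CRE, and in Sftpc-Cre;AhRfl/fl cells at 30.4, 42.5 and 59.4 CPM with PBS and 37.7, 55.4 and 73.6 CPM with CRE. The treatments overlapped in both genotypes when the numbers were ignored. Averaged over the genotypes it rose by 0.30 ± 0.034 on the log2 scale, or 1.23-fold (adjusted p = 0.00379, paired edgeR). It was called in AhRfl/fl cells (0.26, adjusted p = 0.0385) and in Sftpc-Cre;AhRfl/fl cells (0.33, adjusted p = 0.0205). In AhRfl/fl cells that call was lost whichever pair was left out, with adjusted p between 0.0687 and 0.191, and in Sftpc-Cre;AhRfl/fl cells by 4 of the 6 fits that left out 1 pair (adjusted p up to 0.138).

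Ctsh and Abca3 fell with CRE. Cathepsin H, which takes part in cutting the SP-B and SP-C precursors, went from 423, 749 and 871 CPM to 383, 479 and 586 CPM in AhRfl/fl cells and from 785, 725 and 757 CPM to 567, 615 and 562 CPM in Sftpc-Cre;AhRfl/fl cells. It was lower in 6 of 6 pairs, and in Sftpc-Cre;AhRfl/fl cells the treatments did not overlap. Averaged over the genotypes it fell by 0.42 on the log2 scale (SE 0.068), to 0.749 of the PBS level (adjusted p = 0.0158, paired edgeR). The pair of number 1 in AhRfl/fl cells, where Ctsh was already low with PBS, moved by -0.14 and the others by -0.24 to -0.64. Without that pair the fall in AhRfl/fl cells alone was -0.61 with an adjusted p of 0.02. Abca3 went from 140, 168 and 163 CPM to 120, 156 and 144 CPM in AhRfl/fl cells and from 145, 159 and 165 CPM to 132, 137 and 143 CPM in Sftpc-Cre;AhRfl/fl cells. It was lower in 6 of 6 pairs, and averaged over the genotypes it fell by 0.18 on the log2 scale (SE 0.03, adjusted p = 0.0175, paired edgeR), to 0.885 of the PBS level. For Ctsh 3 and for Abca3 4 of the 6 fits that left out 1 pair brought the adjusted p of the average above 0.05, to at most 0.0674 and 0.081, and the averages of Sftpd and Lamp3 were called in all 6.

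Sftpc, the precursor gene of SP-C, fell in AhRfl/fl cells. From the values above, it was lower with CRE in 3 of 3 pairs there, by 0.22, 0.26 and 0.22 on the log2 scale, and the treatments did not overlap. The fitted change was -0.23 ± 0.021 (log2, SE), or 0.851 of the PBS level (adjusted p = 0.00376, paired edgeR), and this call was kept whichever pair was left out (adjusted p 0.011 to 0.0328). Leaving out the libraries of number 1 in both genotypes, which had the highest level of the leukocyte gene Ptprc in their groups, took the adjusted p to 0.061 at a change of -0.24. Without those libraries 1, 0 and 2 of the 9 members were called in AhRfl/fl cells, in Sftpc-Cre;AhRfl/fl cells and in the average. The member called in AhRfl/fl cells was then Ctsh, and those in the average were Sftpd and Ctsh. In Sftpc-Cre;AhRfl/fl cells Sftpc was at 0.013 to 0.071 above PBS in the 3 pairs and was not called (0.048, interval -0.0033 to 0.10, adjusted p = 0.384). The average over the genotypes, -0.093, was called (adjusted p = 0.0157) and stands between these values; 4 of the 6 fits that left out 1 pair lost it (adjusted p up to 0.0703).

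The remaining members were not called in any paired comparison. Sftpa1 was lower with CRE in 3 of 3 pairs of AhRfl/fl cells (-0.14, adjusted p = 0.0623) and at a higher value in 3 of 3 pairs of Sftpc-Cre;AhRfl/fl cells (0.12, adjusted p = 0.132). Sftpb and Napsa had paired differences of -0.14 and -0.25 in AhRfl/fl cells (adjusted p = 0.0779 and 0.0556) and of 0.0069 and -0.0016 in Sftpc-Cre;AhRfl/fl cells. Slc34a2 was above PBS in 2 of 3 pairs of AhRfl/fl cells and in 1 of 3 of Sftpc-Cre;AhRfl/fl cells. Over the 9 genes the median paired log2 change was -0.14 in AhRfl/fl cells and 0.0069 in Sftpc-Cre;AhRfl/fl cells, against 7.3e-05 and -0.0028 over all tested genes.

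**Figure D3:**
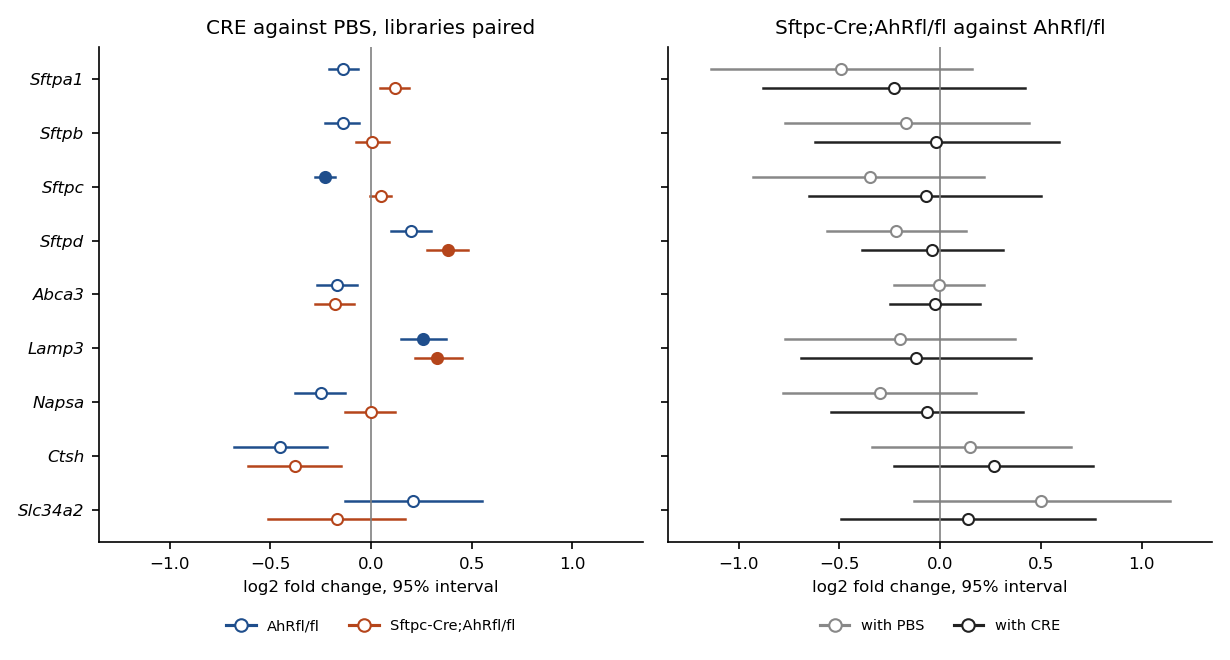
Log2 fold changes (points) with 95% intervals (bars) of the 9 genes. On the left, CRE against PBS with the libraries of one number paired, in AhRfl/fl (blue) and Sftpc-Cre;AhRfl/fl (orange) cells; on the right, Sftpc-Cre;AhRfl/fl against AhRfl/fl cells with PBS (grey) and with CRE (black), without pairing. Filled points passed an adjusted p of 0.05. They are Sftpc and Lamp3 in AhRfl/fl cells and Sftpd and Lamp3 in Sftpc-Cre;AhRfl/fl cells.

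Whether the response to CRE depended on the genotype was tested as an interaction. Neither fit called any member or any of the 20612 genes, so 0% passed without and with the pairs. Unadjusted, 763 genes had p below 0.05 without the pairs and 1874 with them, and among the members 0 and 5 did. DESeq2 with the pairs called 93 genes, of which 1 was a member, Sftpc (adjusted p = 0.0146), and without the pairs it called 23 genes and no member. In the paired edgeR fit the difference of the responses was 0.28 ± 0.03 for Sftpc (log2, SE, adjusted p = 0.275), 0.25 ± 0.043 for Sftpa1 (adjusted p = 0.494) and 0.25 ± 0.075 for Napsa (adjusted p = 0.494). For Abca3 it was -0.016, with an interval from -0.16 to 0.12. The calls for Sftpc in AhRfl/fl cells and for Sftpd in Sftpc-Cre;AhRfl/fl cells are therefore not shown by edgeR to differ between the genotypes.

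The genes were then compared for how they varied across the 12 libraries, as Pearson correlations of log2 CPM. These are descriptions, since libraries of one number share their deviations. Sftpc went most closely with Napsa (r = 0.98), Sftpa1 (0.94) and Sftpb (0.93), and Sftpa1 with Sftpb reached 0.93. Sftpd and Lamp3 formed a close pair (0.95), which went with Sftpc at 0.64 and 0.78. Abca3 went with Ctsh (0.72) and less with the surfactant proteins (-0.0012 with Sftpd, 0.20 with Sftpa1, 0.35 with Sftpc and 0.36 with Sftpb). With group means removed, Abca3 and Sftpd reached 0.66. With group means removed the correlations of Sftpc with Lamp3 and with Sftpd were 0.95 and 0.89. These values rest mainly on the Sftpc-Cre;AhRfl/fl groups, where the 6 genes spread most and shared an order of the libraries. The 6 genes did not share an order in AhRfl/fl cells. With PBS, Sftpc was there at 6016, 6217 and 5476 CPM and Sftpd at 204, 225 and 228 CPM (numbers 1, 2 and 3). Over all 36 pairs of members 26 correlations were above 0, with a median of 0.35, and the median of Sftpc with all other 11475 genes of at least 5 CPM was 0.036.

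**Figure D4:**
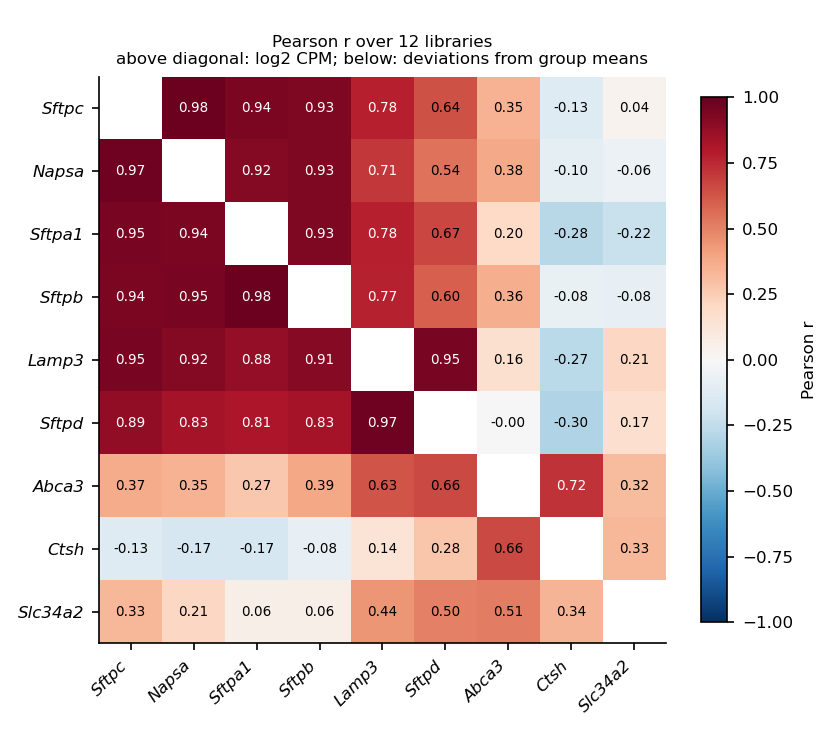
Pearson r between the 9 genes over 12 libraries, for log2 CPM above the diagonal and for deviations from the group means below it. Sftpc, Napsa, Sftpa1 and Sftpb reach 0.92 to 0.98 with each other, Lamp3 and Sftpd 0.95, and Abca3 goes with Ctsh at 0.72.

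Outside the set, the genes most like Sftpc were Lyz2, the lysozyme gene of AT2 cells and macrophages (r = 0.98), Gadd45g, a stress-response gene (0.98), Selenop, which encodes selenoprotein P (0.96), and the ribonuclease gene Rnase4 (0.96). The genes most like Sftpb were Gadd45g (0.96), Dnajb9, a chaperone of the endoplasmic reticulum (0.95), Rnase4 (0.94), the syntaxin Stx3 (0.93) and Gm43085 (0.93). Those most like Abca3 were different: Myo5b, a myosin of apical membrane traffic (0.97), the actin-severing gelsolin gene Gsn (0.94), the fatty acid elongase Elovl5 (0.94), Ccdc68 (0.94) and the kinase Src (0.93). Each was chosen from 11476 genes for this likeness.

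The wider surfactant pathway was read from lists of genes with their named roles. The paired average called 3.47% of all tested genes higher and 3.11% lower, and the list counts here and below stand beside these shares. In the paired comparison averaged over the genotypes, 1 of 19 genes of lamellar body biogenesis and trafficking rose and none fell, with a list median of -0.009. The gene was Rab32, a small GTPase of lysosome-related organelles (0.82 on the log2 scale, adjusted p = 0.00397, paired edgeR), and Rab38, the related GTPase that mice need for normal lamellar bodies, was not called. Of 15 surfactant secretion genes 3 fell and none rose: the SNARE gene Vamp8 (-0.21, adjusted p = 0.00293), the annexin Anxa2 (-0.15, adjusted p = 0.00482) and Unc13d (-0.22, adjusted p = 0.0099), which primes granules for release. Of 12 genes of proprotein folding and quality control only Nedd4l, a ubiquitin ligase, rose (0.26, adjusted p = 0.0336).

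Phospholipid genes moved both ways, with 2 of 17 higher and 3 lower and a list median of -0.032. Lpcat1, the acyltransferase that makes dipalmitoylphosphatidylcholine, fell by 0.55 on the log2 scale (adjusted p = 0.00232, paired edgeR) and the desaturase Scd1 by 0.23 (adjusted p = 0.00611), whereas Prdx6, which has phospholipase activity on surfactant lipid, rose by 0.46 (adjusted p = 0.00427), as did the citrate lyase Acly (0.18, adjusted p = 0.00622). Among 14 transcription factors of surfactant genes Foxa1 rose (0.33, adjusted p = 0.0159) and Etv5, which maintains the AT2 state, fell by 0.47 (adjusted p = 0.00363). Nkx2-1 was not called and varied from 20.5 to 253 CPM between libraries. With PBS it was at 20.5, 253 and 231 CPM in AhRfl/fl cells and at 31.3, 206 and 50.8 CPM in Sftpc-Cre;AhRfl/fl cells, an order of the libraries unlike that of Sftpc. With CRE it was at 148, 166 and 31.6 CPM and at 26.4, 200 and 186 CPM. Some libraries of one number thus differed severalfold between PBS and CRE, in both directions, and whether this is expression or quantification was not tested. None of these 5 lists had a gene that passed between the genotypes, with PBS or with CRE, and their medians there lay between -0.10 and 0.058. Without the pairs, 2 genes of these lists passed averaged over the genotypes, Prdx6 and Etv5.

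Markers of other cells and states moved with the members in some libraries. The summed level of 15 other AT2 markers went with Sftpc at r = 0.98 over the 12 libraries. It was 4769 and 5018 CPM in number 1 of the Sftpc-Cre;AhRfl/fl cells, with PBS and CRE, and 6403 to 8078 CPM in the other 10 libraries. Most of this sum was Lyz2, which went with Sftpc at r = 0.98 by itself. Lyz2 held 2862 of the 4769 CPM and, in number 1 of the AhRfl/fl cells with PBS, 4479 of 7181 CPM. The sum thus mainly follows 1 gene and does not show that all 15 markers were low. In bulk RNA, fewer AT2 cells and less RNA of these genes per cell cannot be told apart. The 7 ciliated cell markers summed to 303 and 298 CPM in these same libraries and to 123 to 191 CPM in the others, with Foxj1 at 112 and 113 CPM against 42.3 to 67.1 CPM. The 7 club cell markers summed to 8460 and 7149 CPM there and to 4292 to 7975 CPM elsewhere. Nearly all of that sum was Scgb1a1, at 8069 and 6662 CPM there and at 3959 to 7593 CPM elsewhere. The 9 leukocyte markers summed to 424 to 882 CPM over all libraries, but most of that sum was Cd74, at 405 to 665 CPM. Ptprc (CD45) was at 47.4 to 67.5 CPM in the libraries of number 1 of both genotypes and at 2.19 to 20.7 CPM elsewhere. No defining marker of these lists was at 0 in all libraries. CD45 was a target of the depletion at isolation. The part of such cells in the low surfactant values of the Sftpc-Cre;AhRfl/fl number 1 was not tested.

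With CRE, 3 of the 15 other AT2 markers rose and 3 fell in the paired average, with Il33, an epithelial alarmin, up by 1.26 (adjusted p = 8.38e-05, paired edgeR), Muc1 by 0.99 (adjusted p = 0.000244) and Chil1 by 0.38 (adjusted p = 0.00631). Without the pairs 2 of them rose and 1 fell. Over all tested genes the paired average called 3.47% higher and 3.11% lower. AT1 markers, which mark the flat gas-exchange cells that AT2 cells give rise to, fell in 8 of 12 genes and rose in none, with a list median of -0.41. Ager fell by 0.83 (adjusted p = 8.38e-05, paired edgeR), Clic5 by 0.44, Emp2 by 0.38 and Gprc5a by 0.37. Without the pairs 3 of the 12 were called lower. Their summed level was lower with CRE in 6 of 6 pairs, and it went with Abca3 and Ctsh at r = 0.87 and 0.84 over the 12 libraries. Of the 11 genes of the transitional alveolar state 4 rose, among them Sfn (0.22), and 6 fell, among them Lgals3, Krt7 and Areg (-0.42, -0.21 and -0.59), whereas without the pairs 1 rose and none fell. The part of AT1-like or transitional cells in the fall of Abca3 and Ctsh was not tested.

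Among 7 club cell genes, again in the paired average, Aldh1a1 rose (0.47) and Scgb1a1 fell by 0.25, and of 7 ciliated cell genes none passed. Of 10 alveolar macrophage genes 2 rose (Cd14 by 1.31 and Adgre1 by 1.92) and 5 fell, among them Ear2 by 1.89 and Itgax by 0.85, at summed levels of 78.7 to 245 CPM. Of 9 leukocyte genes 1 fell (Cd79a by 0.28), of 7 fibroblast genes 3 fell (Col1a1 by 0.19, Col1a2 by 0.40 and Col3a1 by 0.42), and of 6 endothelial genes none passed. Without the pairs no club, ciliated, leukocyte, fibroblast or endothelial gene was called, and of the macrophage genes 1 rose and none fell. Among 6 AhR target genes 3 rose with CRE, including Nqo1 (0.63) and Aldh3a1 (0.89). Between the genotypes the AhR targets Cyp1b1, Nqo1 and Tiparp were lower in Sftpc-Cre;AhRfl/fl cells with PBS and with CRE, the only 3 genes of any list that passed in those comparisons.

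**Figure D5:**
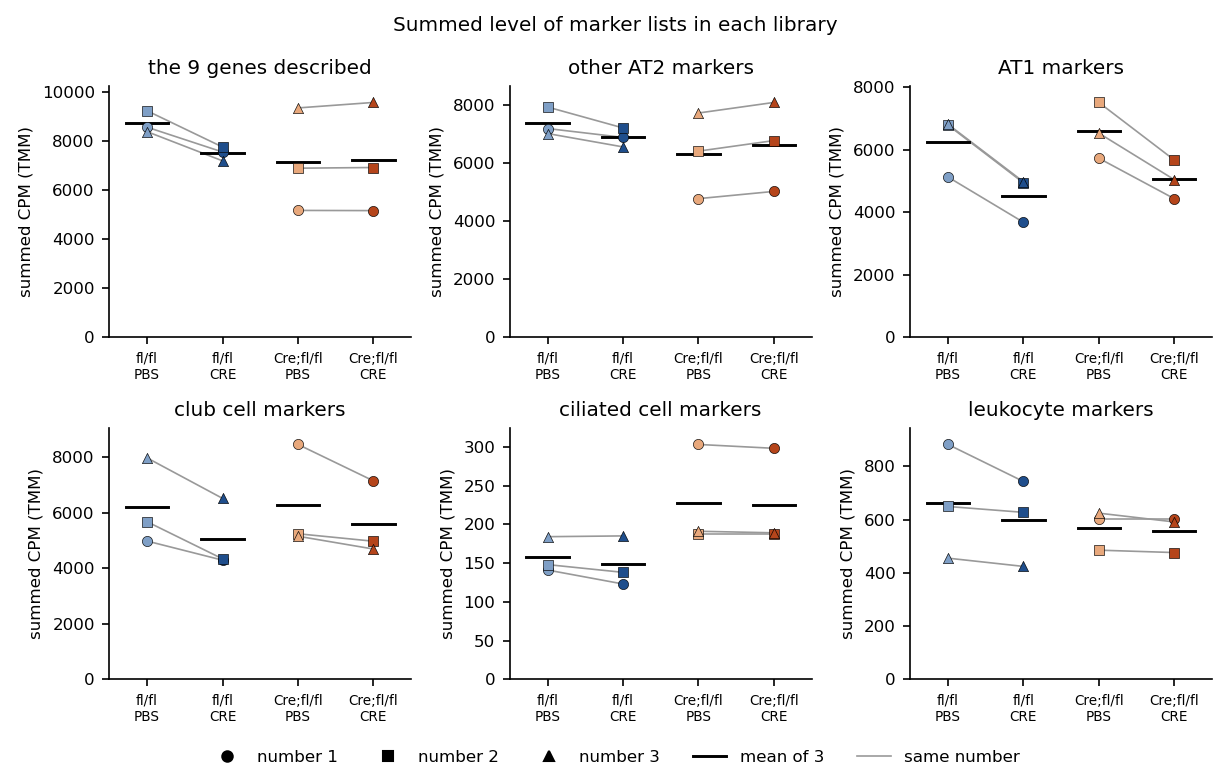
Summed CPM of the 9 genes and of 5 marker lists in each library (linear axes from 0). Symbols are as in the plot of single genes, black bars are means of 3 and grey lines join libraries of one number. Number 1 of the Sftpc-Cre;AhRfl/fl cells has the lowest AT2 sums (4769 and 5018 CPM) and the highest ciliated sums (303 and 298 CPM), and AT1 sums are lower with CRE along all 6 lines.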

How the data were processed

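RNA-seq was done on 12 libraries of cultured AT2 cells, 3 in each of 4 groups taken from the labels. The authors aligned stranded mRNA reads with STAR 2.7.2b to GRCm38 and annotated the alignments with Partek, and took counts from Salmon. They deposited raw counts per gene, as whole numbers, and FPKM values, in which a count of 0 is written as 0.0001. All 55450 gene IDs were found in GENCODE M21, whereas the study names RefSeq, so the annotation behind the counts is not known.

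Counts were tested with edgeR 4.0.16 in R 4.3.3, using TMM scaling, a filter at a minimum count of 10 (20612 genes kept) and 1 quasi-likelihood fit of the 4 group means. P-values were Benjamini-Hochberg adjusted over all tested genes within each of 7 comparisons and called at 0.05. The paired fit gave each PBS and CRE pair of one genotype and number its own block. It rests on the correlations of deviations between same-numbered libraries, which were 0.337 or more in every pair of one genotype; across genotypes, where a number cannot mark the same mouse, they were 0.383, 0.13 and 0.12 with PBS and 0.364, -0.0362 and 0.07 with CRE for numbers 1, 2 and 3, against up to 0.206 and 0.36 for unlike numbers, and the block shared by both genotypes was kept as an alternative. FPKM served only for levels between genes. CPM are counts per 1000000 after TMM scaling, and intervals are 95% intervals. The procedure was tested on simulated data first. Total counts were 68878065 to 80935797. Alternatives used limma 3.58.1, DESeq2 1.42.0, other scalings and filters, and libraries or pairs left out.

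The 9 genes and the gene lists were chosen with earlier results of these data known. All 9 are named with their values. From each other list at most 4 genes are named, those called in any comparison by adjusted p and then those with the highest mean FPKM, and from the correlations the 5 genes most like each of Sftpc, Sftpb and Abca3, of which 1 is not reported here. Foxj1, Ptprc, and Scgb1a1 beside Sftpc were named after their values were seen.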

Additional observations from a re-analysis of the deposited data

Results flagged for a closer look

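Among the 9 genes, 2 had differences with CRE of opposite sign in the genotypes in every pair of libraries. The share of all tested genes with such signs was not counted, so this is not shown to be particular to the 9 genes. For the difference of the responses, 9.09% of all tested genes and 5 of the 9 members had an unadjusted p below 0.05 (paired edgeR). Sftpc was lower with CRE in 3 of 3 pairs of AhRfl/fl cells and at a higher value in 3 of 3 pairs of Sftpc-Cre;AhRfl/fl cells. In the latter it was higher by only 0.013 to 0.071 on the log2 scale, and the fitted interval, -0.0033 to 0.10, included no change. The difference of the responses was 0.28 on the log2 scale. Its adjusted p was 0.275 by paired edgeR, 1 by edgeR without the pairs and 0.0146 by paired DESeq2. For Sftpa1 the same held in 3 of 3 and 3 of 3 pairs, with a difference of 0.25 (adjusted p = 0.494 by paired edgeR and 1 without the pairs). Groups of 3 libraries were not examined for outlying values.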

How the results depend on the processing

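The labels do not say that a number marks a shared preparation, so the replicate block rests on the correlations in the data. With the replicate block within genotype, 2, 2 and 5 members were called with CRE in AhRfl/fl cells, in Sftpc-Cre;AhRfl/fl cells and on average, against 0 without it; with a block shared by both genotypes 1 was called, on average (Sftpd, adjusted p = 0.0488), and no other call changed. No other scaling, filter or tool called a member without the block, and leaving out 1 library called 0 to 1 (Ctsh on average, -0.56, adjusted p = 0.031, without AhRfl/fl PBS number 1). The rest of this part lists counts in the order CRE in AhRfl/fl cells, CRE in Sftpc-Cre;AhRfl/fl cells, genotype with PBS, genotype with CRE, CRE on average, genotype on average and the difference of the responses.

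Genes called were 48, 54, 31, 35, 226, 130 and 0, against 414, 255, 234, 171, 743, 522 and 23 by DESeq2 and 848, 696, 846, 705, 828, 847 and 475 by the study's limma rule of an unadjusted p below 0.05 and a log2 change above 0.5. The shared block gave 137, 112, 71, 55, 529 and 223, with 0 again for the last, and the block within genotype gave 748, 439 and 1358 for the CRE comparisons. Fits of only the 6 libraries compared gave 13 for CRE in Sftpc-Cre;AhRfl/fl cells and 15 for genotype with PBS. Leaving out 1 library gave 19 to 51, 23 to 62, 15 to 29, 21 to 35, 125 to 219, 78 to 110 and 0 to 2.

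Chosen after seeing the data, fits without the libraries of number 1 gave 19 genes for genotype with CRE, 64 on average and 4 for the difference, and summing the PBS and CRE counts of one number gave 17 for genotype on average, with 0 members. In the paired fits, leaving out 1 pair gave 1 to 2, 0 to 3 and 2 to 4 members and 129 to 426, 85 to 351 and 634 to 941 genes (0 to 4 for the difference). Without number 1 they gave 1, 0 and 2 members and 139, 115, 449 and, for the difference, 4 genes. Without a filter 1 member and 446 genes were called in AhRfl/fl cells. Paired DESeq2 called 5 and 4 members in the genotypes and 1 for the difference, and 1586, 1018 and 93 genes.

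Uncalled members changed sign under some alternatives, and some of these did not start near 0. For CRE in Sftpc-Cre;AhRfl/fl cells Sftpb (0.0033) went to -0.0017 by DESeq2 and by RLE factors, to -0.024 by library size, to -0.0074 with a filter of 1 CPM and to -0.016 without number 1. By library size Abca3 went to 0.028 for genotype with PBS and 0.0029 on average. Without number 1, genotype with PBS went from -0.17 to 0.016 for Sftpb and from 0.15 to -0.12 for Ctsh. Genotype with CRE went from -0.23 to 0.022 for Sftpa1, -0.019 to 0.16 for Sftpb and -0.071 to 0.16 for Sftpc. It went from -0.038 to 0.037 for Sftpd, -0.12 to 0.013 for Lamp3 and -0.067 to 0.12 for Napsa. Genotype on average went from -0.094 to 0.09 for Sftpb, -0.21 to 0.024 for Sftpc and -0.18 to 0.0077 for Napsa.

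Leaving out 1 library changed signs within these ranges. CRE in Sftpc-Cre;AhRfl/fl cells ran from -0.27 to 0.49 for Sftpa1, -0.34 to 0.36 for Sftpb, -0.24 to 0.32 for Sftpc, -0.21 to 0.24 for Napsa and -0.43 to 0.13 for Slc34a2. Genotype with PBS ran from -0.52 to 0.025 for Sftpb, -0.082 to 0.047 for Abca3, -0.47 to 0.013 for Lamp3 and -0.10 to 0.37 for Ctsh. Genotype with CRE ran from -0.37 to 0.16 for Sftpb, -0.36 to 0.15 for Sftpc, -0.17 to 0.11 for Sftpd, -0.13 to 0.06 for Abca3, -0.38 to 0.092 for Lamp3, -0.26 to 0.088 for Napsa and -0.13 to 0.38 for Slc34a2. CRE on average ran from -0.20 to 0.18 for Sftpa1, -0.24 to 0.11 for Sftpb, -0.23 to 0.041 for Sftpc and -0.11 to 0.17 for Slc34a2, genotype on average from -0.27 to 0.003 for Sftpb and -0.066 to 0.028 for Abca3, and the difference from -0.13 to 0.63 for Sftpa1 and -0.0022 to 0.55 for Sftpc. Of all values of single members under the alternatives 1242 kept direction and side of the threshold, 66 changed sign, 20 passed it anew and 31 no longer passed; the cause was not tested. With 3 libraries a group, of which those of number 1 and 3 set the spread in Sftpc-Cre;AhRfl/fl cells, differences as large as those of Sftpa1 and Sftpc between the genotypes could not be told from that spread.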
